A study of Homo sapiens with 2 samples.

Results

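Peaks of accessible chromatin that lie inside very long human genes were described, gene by gene, in ATAC-seq libraries of cells labelled U2OS. A peak was a member when its summit lay inside the RefSeq bounds of an autosomal protein-coding gene spanning 500 kb or more and over 1 kb from both outer ends of that gene. The rule took 303 of 19122 autosomal protein-coding genes, which together cover 250.1 Mb. They held 33588 of the 546555 peaks deposited for both libraries, with 20121 of 321151 in sh-VNGD and 13467 of 225404 in sh-ctrl. Of these genes, 66 span 1 Mb or more and the longest spans 2474 kb. A small share of the member peaks, 0.381%, lay inside 2 such genes.

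The study infected U2OS cells, an established human osteosarcoma line, so that they carry a short hairpin against Vanguard, a long non-coding RNA (sh-VNGD), or a control hairpin (sh-ctrl). There was 1 library per group, so no difference below has a replicate check, no p-value can be given and all intervals cover counting error only. Both groups were grown in the same medium, the labels name no other agent, and the hairpin sequences are not used here. Because ATAC-seq reads accessibility rather than RNA, the level of Vanguard is not measured by these libraries.

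Very long genes are mostly intron, and many of them encode proteins of synapses, cell adhesion and signalling. In a cell that does not transcribe them they often lie in compact, late-replicating chromatin. Some of them span common fragile sites, loci that form gaps and breaks on metaphase chromosomes under mild replication stress. FHIT at FRA3B and WWOX at FRA16D are the best studied, and deletions inside both are frequent in tumours. ATAC-seq peaks inside such genes mark inner promoters, enhancers and other sites where the Tn5 transposase can insert.

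The sh-VNGD library kept 31326715 tags after removal of repeated positions and the sh-ctrl library kept 22931980, a ratio of 1.37. Repeats were 35% of the tags read in sh-VNGD and 56% in sh-ctrl. Pileup is the deposited number of tags over a peak summit and is not scaled for depth. The labelled cell type was checked by peaks at the outer ends of marker genes. Osteoblast and mesenchymal markers had a peak at 6 of 10 genes in sh-VNGD and 4 of 10 in sh-ctrl, with a summed pileup of 119 in sh-VNGD and 86 in sh-ctrl. RUNX2, SPARC and VIM had none there in either library, although an inner RUNX2 promoter held 43 tags in sh-VNGD, against 38 in sh-ctrl. Epithelial markers had a peak at 6 of 6 genes in sh-VNGD and 4 of 6 in sh-ctrl, with a summed pileup of 558 in sh-VNGD and 580 in sh-ctrl. CDH1, which encodes E-cadherin, had 138 tags in sh-VNGD, against 127 in sh-ctrl, and EPCAM had 108 in sh-VNGD and 139 in sh-ctrl. Haematopoietic markers had peaks at 4 of 6 genes in both libraries, with a summed pileup of 256 in sh-VNGD, against 284 in sh-ctrl, most of it at SPI1 and CD3E. SPI1 had 113 tags in sh-VNGD, against 105 in sh-ctrl, and CD3E had 82 in sh-VNGD, against 112 in sh-ctrl. Neuronal markers had peaks at 4 of 6 genes in both, with a sum of 149 in sh-VNGD, against 142 in sh-ctrl, and endothelial markers at 1 of 4 in both, with 13 in sh-VNGD, against 16 in sh-ctrl. The sums of the haematopoietic and neuronal lists thus also exceeded that of the osteoblast and mesenchymal list. An accessible end is not expression, and the markers were mixed. The open CDH1, EPCAM, GRHL2 and ESRP1 ends and the missing VIM and SPARC peaks go against the mesenchymal character of the labelled line. Other markers of these lists were less clear. FN1 had 19 tags in sh-VNGD, against 31 in sh-ctrl, TWIST1 had 41 against 12 and COL1A2 19 against 11. COL1A1, PRRX1 and ALPL had 15, 10 and 15 tags in sh-VNGD and no end peak in sh-ctrl. BGLAP had 32 tags in sh-ctrl and no end peak in sh-VNGD. The epithelial KRT5 and KRT14 were low in sh-VNGD, at 20 and 11, and had no end peak in sh-ctrl. The cell type was thus not settled, and the libraries are called here by their labels only.

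Inner promoters are peaks whose position has a known role, so some of their sequences are shown first. RefSeq (GRCh38.p14) lists 375 promoter windows of 162 very long genes that lie over 1 kb from the outer ends, each running from 250 bases before to 50 bases after a start. Windows of alternative starts can overlap. A window that holds a summit is called open, and one with none closed. A summit of both libraries lay in 62 of them (16.5%, Wilson 95% interval 13.1 to 20.6), against 78 of 213 windows at the outer ends of very long genes (36.6%, 30.4 to 43.3). The sequences below were chosen after their values were seen. They are the inner promoters of NRXN3, which encodes a presynaptic adhesion protein, NAV2, ROBO1, an axon guidance receptor, and RABGAP1L, together with RPRM, a cell cycle gene that lies inside GALNT13, and the inner promoter of FHIT. Capitals mark matches on either strand to the motifs searched, namely AP-1 (TGANTCA), SP factors (GGGCGG), NF-Y (CCAAT) and CRE (TGACGTCA). All are printed from 5′ to 3′ on the gene's own strand.
NRXN3, chr14:79279130-79279429, plus strand: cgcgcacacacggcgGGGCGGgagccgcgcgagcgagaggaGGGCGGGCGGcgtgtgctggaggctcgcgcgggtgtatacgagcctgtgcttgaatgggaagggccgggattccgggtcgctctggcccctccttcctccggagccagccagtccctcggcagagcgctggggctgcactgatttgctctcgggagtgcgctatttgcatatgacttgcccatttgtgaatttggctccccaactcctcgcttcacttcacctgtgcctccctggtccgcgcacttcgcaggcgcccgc
NAV2, chr11:19712587-19712886, plus strand: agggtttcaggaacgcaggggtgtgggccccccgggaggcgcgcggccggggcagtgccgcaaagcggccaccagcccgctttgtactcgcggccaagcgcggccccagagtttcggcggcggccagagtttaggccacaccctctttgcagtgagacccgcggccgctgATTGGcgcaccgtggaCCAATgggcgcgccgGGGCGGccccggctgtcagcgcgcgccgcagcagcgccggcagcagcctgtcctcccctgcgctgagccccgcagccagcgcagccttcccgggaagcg
ROBO1, chr3:79019410-79019709, minus strand: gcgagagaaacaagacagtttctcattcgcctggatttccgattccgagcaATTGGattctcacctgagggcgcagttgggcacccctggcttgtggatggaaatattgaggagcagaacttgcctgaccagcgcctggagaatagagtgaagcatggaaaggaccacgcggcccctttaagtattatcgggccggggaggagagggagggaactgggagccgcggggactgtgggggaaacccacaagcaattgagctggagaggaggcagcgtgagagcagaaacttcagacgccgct
RABGAP1L, chr1:174799488-174799787, plus strand: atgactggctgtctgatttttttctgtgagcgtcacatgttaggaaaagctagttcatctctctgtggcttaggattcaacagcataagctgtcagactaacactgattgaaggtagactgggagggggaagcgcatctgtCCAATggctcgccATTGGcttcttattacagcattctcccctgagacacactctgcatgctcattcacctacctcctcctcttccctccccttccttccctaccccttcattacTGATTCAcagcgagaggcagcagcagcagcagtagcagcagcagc
RPRM, chr2:153478713-153479012, minus strand: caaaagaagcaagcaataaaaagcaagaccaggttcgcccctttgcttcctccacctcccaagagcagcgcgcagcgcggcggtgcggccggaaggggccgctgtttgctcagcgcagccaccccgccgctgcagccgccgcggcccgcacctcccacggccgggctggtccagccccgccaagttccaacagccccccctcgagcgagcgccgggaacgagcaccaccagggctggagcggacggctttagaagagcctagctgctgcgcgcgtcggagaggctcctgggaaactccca
FHIT, chr3:60080860-60081159, minus strand: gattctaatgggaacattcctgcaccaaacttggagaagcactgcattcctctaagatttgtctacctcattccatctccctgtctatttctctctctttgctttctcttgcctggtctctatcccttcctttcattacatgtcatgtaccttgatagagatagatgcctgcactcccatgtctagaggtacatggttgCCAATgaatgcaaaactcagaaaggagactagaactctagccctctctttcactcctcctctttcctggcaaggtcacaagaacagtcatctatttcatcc

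The NRXN3 window, 1109 kb into the gene, had a pileup of 141 tags in sh-VNGD, against 166 in sh-ctrl. The NAV2 window lies 368 kb into its gene and had 134 tags in sh-VNGD, against 136 in sh-ctrl. The ROBO1 window, 749 kb from the outer 5′ end, had 98 tags in sh-VNGD, against 127 in sh-ctrl. These windows were open in both libraries, with the higher unscaled pileup in sh-ctrl in each. The RABGAP1L window was the other way round, with 118 tags in sh-VNGD, against 76 in sh-ctrl. Its log2 ratio was 0.45 above the level of all regions (0.02 to 0.88), on a scale defined below. On that scale NRXN3 stood at −0.42 (−0.76 to −0.09) and ROBO1 at −0.56 (−0.96 to −0.17), both wholly below the level. NAV2 stood at −0.21 (−0.56 to 0.15). RPRM had 104 tags in sh-VNGD, against 111 in sh-ctrl, at −0.28 (−0.68 to 0.12) on the same scale. The FHIT window, 1171 kb into the gene, held no summit of either library.

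The open inner promoters differed in base composition from the closed ones. The 62 inner windows open in both libraries had a median GC content of 59.5%, against 47.0% in the 287 open in neither. The median observed over expected CpG ratio was 0.590 in the open and 0.347 in the closed windows. It was 0.22 in the open RABGAP1L window, and the closed FHIT window holds no CpG. Over all autosomal promoter windows the median GC content was 66.0% in the open and 52.0% in the closed ones. The SP motif was found in 45.2% of the open and 23.3% of the closed inner windows, against 74.0% of the open and 29.2% of the closed windows among all autosomal promoters. AP-1 was found in 12.9% of the open and 11.8% of the closed inner windows, against 5.22% of the open and 8.89% of the closed windows among all promoters. Over all promoter windows, open or not, SP was found in 45.0% and AP-1 in 7.67%. Over all promoter windows NF-Y was found in 34.4%, CRE in 1.87% and NRF1 in 1.23%, and the printed RPRM window holds none of these letters. A match is a description of letters and not a binding site.

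Promoters of other genes nested inside very long genes were mostly closed. Of 588 such windows, 49 (8.33%) held a summit of both libraries, against 30.5% of the other autosomal promoter windows. Kinds of gene differed. Among the 62 nested protein-coding windows 38.7% were open in both libraries, close to 39.5% of the other protein-coding windows. The 526 nested lncRNA windows were open in 4.75%, against 15.1% of other lncRNA windows. The highest nested promoters were those of PALS1, a cell polarity protein, with 140 tags in sh-VNGD, against 151 in sh-ctrl, and of ARG2, a mitochondrial arginase, with 147 in sh-VNGD and 128 in sh-ctrl. Both lie inside the table's bounds of GPHN. Those bounds hold 12 other protein-coding genes. RANBP2, ANXA8, LRRC37A2 and DLGAP2 also hold 3 or more, so the outer bounds of these genes in the table are uncertain. Member peaks within 1 kb of another protein-coding gene's end numbered 110 (0.327%).

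The first comparison asked how densely very long genes are covered by peaks. They held 80.5 peaks per Mb in sh-VNGD (exact Poisson interval 79.3 to 81.6) and 53.8 in sh-ctrl (52.9 to 54.8). Genes of 100 to 500 kb held 110 per Mb in sh-VNGD and 78.7 in sh-ctrl, and genes under 100 kb held 126 in sh-VNGD and 93.6 in sh-ctrl. Sequence outside protein-coding genes held 89.2 per Mb in sh-VNGD and 60.6 in sh-ctrl, so very long genes were the sparsest class in both libraries. Assembly gaps were not subtracted from any class. High peaks, with a pileup of 50 or more, stood at 4.51 per Mb in sh-VNGD and 4.33 in sh-ctrl, against 7.42 in sh-VNGD and 7.64 in sh-ctrl in genes of 100 to 500 kb. Density was lower still in the genes of 1 Mb or more, at 70.9 per Mb in sh-VNGD, against 46.6 per Mb in sh-ctrl.

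**Figure D1:**
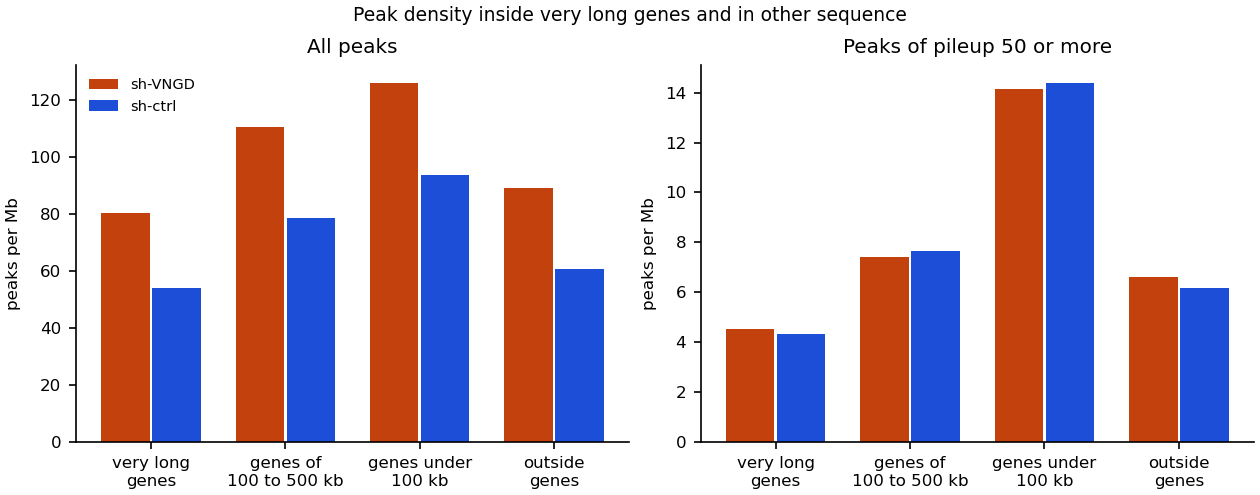
Bars give peaks per Mb of sequence (y axis) in 4 classes of autosomal sequence (x axis), for all peaks (left) and for peaks with a pileup of 50 tags or more (right); each bar is 1 library, sh-VNGD left of sh-ctrl. Very long genes, with 80.5 peaks per Mb in sh-VNGD and 53.8 in sh-ctrl, are the lowest class, and their high peaks are nearly equal in number at 4.51 per Mb in sh-VNGD and 4.33 in sh-ctrl.

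Single genes spanned a wide range of density. In sh-VNGD the lowest was ARHGAP15, a GTPase-activating protein, at 33.0 peaks per Mb, and the highest was GSE1 at 162. In sh-ctrl the lowest was GRIK2, a kainate receptor subunit, at 17.8, and GSE1 was again the highest at 172. The quartiles over the 303 genes were 64.2 and 98.9 per Mb in sh-VNGD and 39.0 and 69.9 in sh-ctrl. After GSE1, the densest genes by the mean of both libraries were PRKCA and PRKCE, which encode protein kinases C, BCAS3 and the synapsin gene SYN3. PRKCA had 146 peaks per Mb in sh-VNGD and 119 in sh-ctrl, and SYN3 had 153 in sh-VNGD and 104 in sh-ctrl. After ARHGAP15 and GRIK2, the sparsest were DLGAP2, a postsynaptic scaffold, CSMD3 and the receptor phosphatase PTPRK. CSMD3 had 41.3 peaks per Mb in sh-VNGD, against 20.6 in sh-ctrl. The genes ranked similarly in both libraries, with a Spearman correlation of 0.90 over 303 genes, given as a description since both libraries share the same sequence.

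The local background of several dense genes was raised. It is the tag level around a summit, taken from the authors' fold enrichment. It was called raised when over 2% above the genome-wide level of each library (1.92 tags for sh-VNGD, 1.40 for sh-ctrl). A raised background was found at 38.3% of member peaks in sh-VNGD and at 39.3% in sh-ctrl, against 58.5% of all autosomal peaks in sh-VNGD and 60.0% in sh-ctrl. In GSE1 all peaks of both libraries, 100%, had a raised background, with a median pileup of 55 tags in sh-VNGD and one of 61 in sh-ctrl, against 15 in sh-VNGD and 13 in sh-ctrl over all member peaks. It was raised at 93.2% of sh-VNGD and 91.7% of sh-ctrl peaks in PRKCA. In BCAS3 it was raised at 88.7% of sh-VNGD and 92.0% of sh-ctrl peaks, and in PTPRG at 95.8% in sh-VNGD and 98.6% in sh-ctrl. CDH4, a cadherin, had 93.2% in sh-VNGD and 96.9% in sh-ctrl. At the other end SOX5, a transcription factor, had 0% in both. Across the 303 genes, density and the sh-VNGD share of raised background had a Spearman correlation of 0.68, a description over genes that share 2 libraries. Peaks were called without a control. The background is thus drawn from the same tags, over a window of 10000 bp that holds the peak and its neighbours. The correlation and the raised background of genes with many high peaks are therefore partly built in. More copies of a segment per cell and more open chromatin cannot be told apart in these data.

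Among the longest stretches without a peak of either library were those in DLGAP2, with 179 kb, CSMD3 with 150 kb, LRP1B with 122 kb and the adhesion gene NEGR1, also with 122 kb. In 20 genes the longest such stretch was 100 kb or more, and the median over all genes was 49.8 kb. Whether an assembly gap lies in them was not checked.

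By distance bin, density was highest some way in from either end and lower in the deepest bins. For the 251 genes with a known strand, density was 96.1 peaks per Mb in sh-VNGD and 67.7 in sh-ctrl at 25 to 50 kb from the 5′ end, measured up to the middle of each gene. Over 400 kb from the 5′ end it was 69.5 in sh-VNGD, against 46.2 in sh-ctrl. The first bin, 1 to 5 kb, held few peaks, 58 in sh-VNGD and 60 in sh-ctrl, but with a median pileup of 24 in sh-VNGD and 23.5 in sh-ctrl. Beyond 5 kb the median lay at 14 or 15 tags in sh-VNGD, against 13 in sh-ctrl in every bin. From the 3′ end density was 95.1 per Mb in sh-VNGD, against 68.3 in sh-ctrl, at 10 to 25 kb, and 73.7 in sh-VNGD, against 45.1 in sh-ctrl, beyond 400 kb. Only the longer genes reach the bins beyond 400 kb, and longer genes had lower density. Distance and gene length cannot be told apart in those bins.

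**Figure D2:**
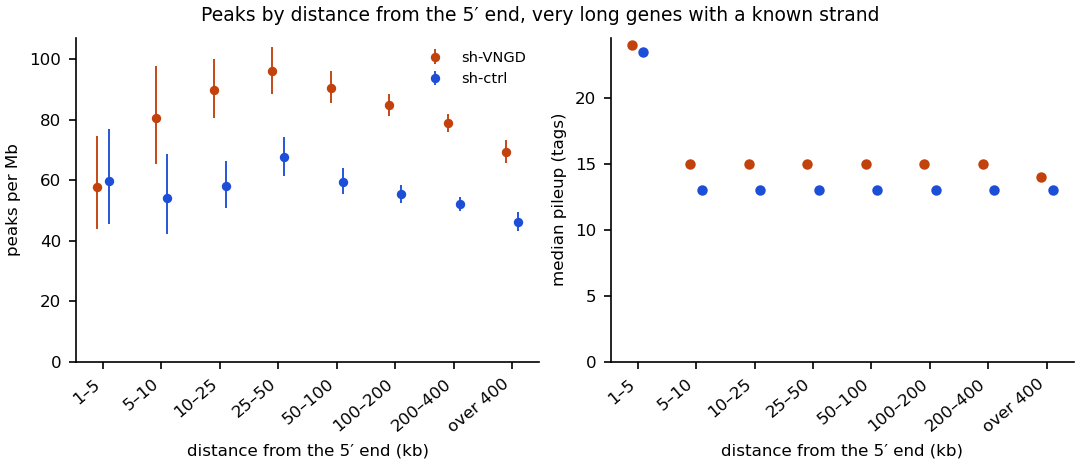
Peaks per Mb with exact Poisson 95% intervals (left) and median pileup in tags (right) against distance from the 5′ end in kb, for the 251 very long genes with a known strand; points are 1 library each. Density is highest at 25 to 50 kb, with 96.1 per Mb in sh-VNGD and 67.7 in sh-ctrl, and the median pileup is highest in the bin from 1 to 5 kb. Only the longer genes reach the last bin.

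Median density inside was compared by whether the outer ends of the gene were accessible. A peak of both libraries within 1 kb of an outer end was found for 184 genes, which had a median density of 82.3 per Mb in sh-VNGD, against 56.4 in sh-ctrl. The 87 genes with none had 75.8 in sh-VNGD, against 43.7 in sh-ctrl. The remaining 32 had such a peak in 1 library, with 16 in sh-VNGD alone and 16 in sh-ctrl alone, and a median density of 75.0 in sh-VNGD, against 52.8 in sh-ctrl. In sh-VNGD these lay no higher than the genes with none. Peaks that the rule just left out, on the inner side of an outer end and 0 to 1 kb from it, numbered 94 in sh-VNGD and 106 in sh-ctrl. Their median pileups were 29 in sh-VNGD and 24.5 in sh-ctrl. Member peaks at 1 to 2 kb numbered 58 in sh-VNGD and 60 in sh-ctrl, with median pileups of 25.5 in sh-VNGD, against 26.5 in sh-ctrl. The gene just over the length threshold was PPP2R2B, a regulatory subunit of protein phosphatase 2A, at 501 kb, with 82.2 peaks per Mb in sh-VNGD and 38.1 in sh-ctrl, and the one just under it was DIAPH3 at 498 kb, with 68.5 in sh-VNGD, against 44.3 in sh-ctrl.

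The next comparison set the number of peaks in sh-VNGD against that in sh-ctrl. The ratio was 1.49 over very long genes (exact Clopper-Pearson 95% interval 1.46 to 1.53), against 1.41 for all autosomal peaks, 1.40 in genes of 100 to 500 kb, 1.35 in genes under 100 kb and 1.47 outside genes. Peaks of pileup 50 or more had a ratio of 1.04 (0.96 to 1.13), against 1.03 over all autosomes. Under 15 tags the ratio was 1.23, at 15 to under 20 tags 2.41 and at 20 to under 30 tags 1.94. Over all autosomes it was 1.18, 2.22 and 1.74 in the same classes. The surplus of sh-VNGD peaks was thus largest at 15 to under 20 tags, by a pileup not scaled for depth. The kept depth differed by a ratio of 1.37 in the same direction, and the part of depth in the surplus cannot be told apart from that of the group. Divided by that of all autosomal peaks, the ratio inside very long genes was 1.06 (1.04 to 1.08). With equal numbers of peaks in both lists, which sets the ratio of all autosomal peaks to 1, it was 1.04 (1.02 to 1.06). The intervals treat the 2 libraries' peaks as independent counts although many are shared.

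Gene by gene, 299 of the 303 genes had more peaks in sh-VNGD, against 2608 of 2907 genes of 100 to 500 kb. The ratio of all autosomal peaks was itself above 1. The interval of the ratio lay wholly above that of all autosomal peaks in 6 genes (1.98%) and wholly below it in 4 (1.32%). Among 2094 gene bodies of any length with at least 30 peaks, these genes included, 0.525% lay above and 0.43% below. Among gene bodies of 100 to 500 kb with at least 30 peaks the share was 0.288% in either direction. Intervals narrow with the number of peaks in a gene, and the sets were not matched for it. Among the 6 genes above the ratio of all peaks were ADAMTSL1, a secreted matrix protein, DPYD, which degrades pyrimidines, LHFPL3, TMEM132D and NRG3, a ligand of ERBB4. Below it were NCAM2, an adhesion protein, GSE1, the receptor tyrosine kinase gene ERBB4 and the receptor phosphatase gene PTPRG. ADAMTSL1 had 67 peaks in sh-VNGD, against 27 in sh-ctrl, a ratio of 2.48 (1.57 to 4.04). DPYD had 47 peaks in sh-VNGD, against 19 in sh-ctrl, a ratio of 2.47 (1.42 to 4.46). NRG3 and LHFPL3 each had 74 peaks in sh-VNGD, against 34 in sh-ctrl. NCAM2 had 34 peaks in sh-VNGD, against 41 in sh-ctrl, a ratio of 0.83 (0.51 to 1.34). ERBB4 had 86 peaks in sh-VNGD, against 89 in sh-ctrl, and PTPRG had 71 in sh-VNGD, against 73 in sh-ctrl.

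The sequence around these genes did not always have the same ratio. In the 500 kb on each side of NCAM2 the ratio was 1.67, with 60 peaks in sh-VNGD, against 36 in sh-ctrl, and beside ERBB4 it was 1.76, with 81 in sh-VNGD and 46 in sh-ctrl. Beside GSE1 it was 1.11 and beside PTPRG 1.20, both under the 1.41 of all peaks. Beside DPYD it was 1.24, with 56 peaks in sh-VNGD, against 45 in sh-ctrl. With a −log10 q of at least 5, 8 of the 10 calls were lost, and with equal numbers of peaks 5 were lost. Both settings use fewer peaks, and the cause of the losses was not tested. On the log2 scale relative to all autosomal peaks, the count ratio of TMEM132D was 0.60 with all peaks and 0.65 with the q threshold, and that of NCAM2 was −0.77 with all peaks and −0.70 with the q threshold. With equal numbers of peaks that of GSE1 was −0.23, against −0.58 with all peaks, while ADAMTSL1 kept its call under both and with summits over 10 kb from the ends.

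**Figure D3:**
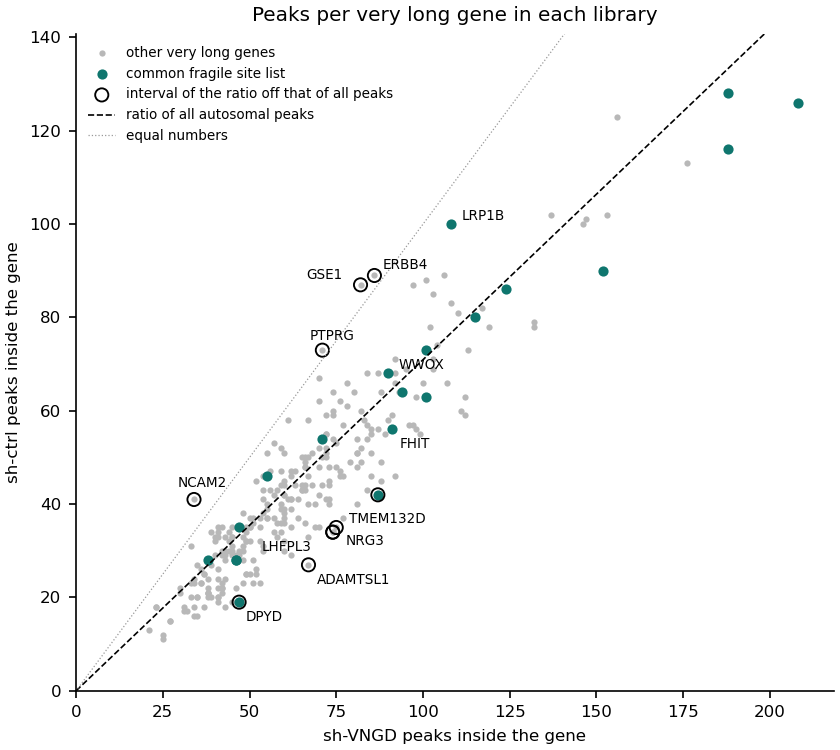
Peaks inside each of the 303 very long genes in sh-VNGD (x axis) and in sh-ctrl (y axis), 1 point per gene; the dashed line is the ratio of all autosomal peaks, 1.41, and the dotted line equal numbers. Rings mark the 6 genes whose ratio has an interval above 1.41, below the dashed line, and the 4 with an interval under it, above the line; the points of NRG3 and LHFPL3 coincide at 74 and 34 peaks.

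Other genes with high ratios, whose intervals reached the level of all peaks, were RELN, which encodes the secreted protein reelin, with 43 peaks in sh-VNGD, against 18 in sh-ctrl, and RARB, a retinoic acid receptor, with 53 in sh-VNGD and 23 in sh-ctrl. KHDRBS2 had 45 peaks in sh-VNGD, against 19 in sh-ctrl, and the transcription factor gene FOXP2 had 35 in sh-VNGD and 16 in sh-ctrl. Low ratios with intervals that held 1.41 were found in PRKCE, with 70 peaks in sh-VNGD, against 67 in sh-ctrl, STARD13 with 61 in sh-VNGD and 58 in sh-ctrl, ANK3, which encodes ankyrin-G, with 57 in sh-VNGD and 53 in sh-ctrl, and the ephrin receptor gene EPHA6 with 55 in sh-VNGD and 51 in sh-ctrl.

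Lists of genes by function are given beside the median of all very long genes. Over all 303 genes the median density was 80.4 per Mb in sh-VNGD and 53.3 in sh-ctrl and the median count ratio 1.51. The interval of the ratio lay above the level of all peaks in 1.98% of them and below it in 1.32%. Called genes within a list are too few to set against these shares. The 47 cell adhesion and axon guidance genes had 68.1 per Mb in sh-VNGD and 46.0 in sh-ctrl and a ratio of 1.38, with 1 gene below the level of all peaks and 0 above. DSCAM was the densest of them, at 123 per Mb in sh-VNGD and 102 in sh-ctrl, and CNTNAP5 was among the sparsest at 41.4 in sh-VNGD, against 28.0 in sh-ctrl. The 20 ion channel and transmitter receptor genes had 64.4 per Mb in sh-VNGD and 39.9 in sh-ctrl and a ratio of 1.54, with 1 gene above and 0 below. RYR3, a calcium release channel, had 108 per Mb in sh-VNGD and 70.5 in sh-ctrl, whereas the glutamate receptor gene GRM5 had 41.1 in sh-VNGD, against 32.2 in sh-ctrl.

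The 37 kinase, phosphatase and signalling genes had a median of 83.4 per Mb in sh-VNGD and 48.4 in sh-ctrl and a ratio of 1.52, with 1 gene above and 2 below. The 26 genes of transcription, chromatin, RNA processing and repair had 81.2 per Mb in sh-VNGD and 59.2 in sh-ctrl and a ratio of 1.41, with 0 above and 0 below. RAD51B, of homologous recombination, was dense at 121 per Mb in sh-VNGD and 85.9 in sh-ctrl, and SOX5 was sparse at 39.8 in sh-VNGD, against 32.0 in sh-ctrl. The 23 cytoskeleton, matrix and muscle genes had 79.4 per Mb in sh-VNGD and 50.4 in sh-ctrl and a ratio of 1.53, with 1 gene above and 0 below. KIF26B, a kinesin family member, had 152 per Mb in sh-VNGD and 77.8 in sh-ctrl.

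Common fragile site genes had lower median densities than the other very long genes, and they are also longer. The 20 listed genes, all over 500 kb, had a median of 74.9 peaks per Mb in sh-VNGD (60.6 to 87.0, exact interval of the median over genes) and 50.7 in sh-ctrl (39.0 to 59.0). The other 283 had 80.4 in sh-VNGD and 53.6 in sh-ctrl, inside both intervals. Density fell with span over all 303 genes (Spearman correlation −0.30, a description), and the pooled density of genes of 1 Mb or more, given above, lay below the medians of the list in both libraries. Their median count ratio was 1.47, against 1.51 in the other genes. Of the 20, 2 (10%) lay above the level of all peaks and 0 below, against 1.41% of the others in either direction. These are too few calls to set the 20 genes apart. Their longest peak-free stretch had a median of 70.1 kb against 48.9 kb, but their median span was 1241 kb against 702 kb. Highest pileups inside the genes had medians of 109 tags in sh-VNGD and of 102 in sh-ctrl, against 107 in sh-VNGD and 108 in sh-ctrl in the others. A maximum tends to rise with the number of peaks in a gene, and these maxima were not matched for span.

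**Figure D4:**
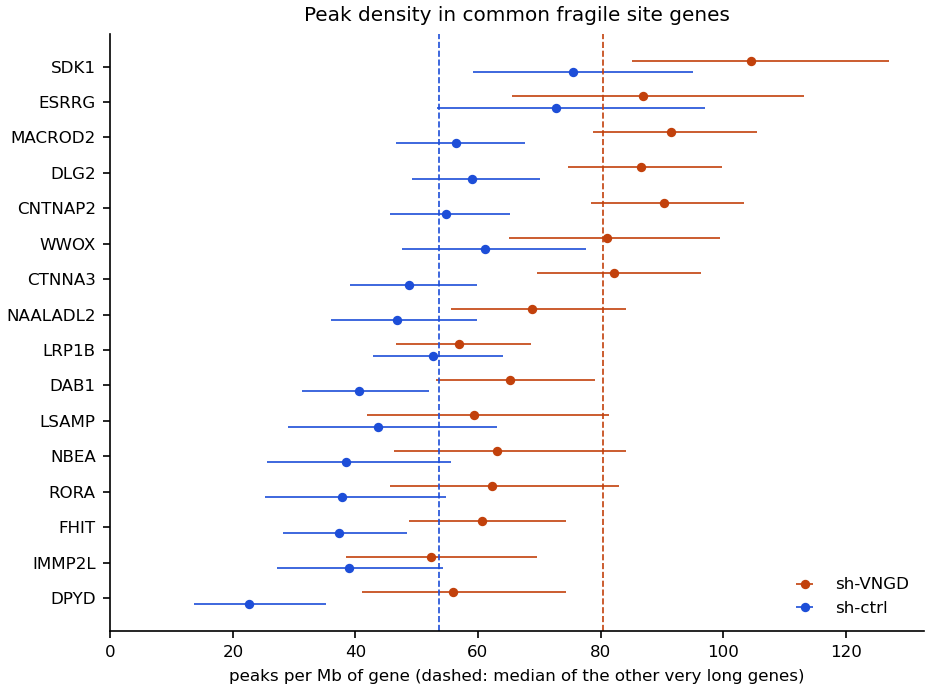
Peaks per Mb of gene (x axis) for 16 of the 20 common fragile site genes (rows, by mean density) in sh-VNGD and sh-ctrl, each with an exact Poisson 95% interval; dashed lines are the medians of the 283 other very long genes, 80.4 in sh-VNGD and 53.6 in sh-ctrl. By mean density the rows run from SDK1, at 105 in sh-VNGD and 75.6 in sh-ctrl, to DPYD, at 55.9 in sh-VNGD and 22.6 in sh-ctrl.

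FHIT, a hydrolase of dinucleoside polyphosphates and tumour suppressor, spans 1504 kb on chromosome 3. It held 91 peaks in sh-VNGD, against 56 in sh-ctrl, or 60.6 per Mb in sh-VNGD and 37.3 per Mb in sh-ctrl, and a count ratio of 1.63 (1.15 to 2.31). Its highest region, chr3:60710669-60711104, lies 541 kb from the 5′ end and had 69 tags in sh-VNGD, against 71 in sh-ctrl. A second, chr3:61249891-61250339, lies 1.31 kb from the 5′ end and had 65 tags in sh-VNGD, against 69 in sh-ctrl. Both had unscaled pileups that nearly matched between libraries. Height differed along the gene. Split points within FHIT, WWOX and LRP1B were chosen after the values were seen. The first 600 kb held 46 peaks in sh-VNGD, against 31 in sh-ctrl, of which 9 in sh-VNGD and 6 in sh-ctrl had a pileup of 30 or more. The remaining part held 45 peaks in sh-VNGD, against 25 in sh-ctrl, none over 26 tags in sh-VNGD or 25 in sh-ctrl. The inner promoter shown above lies in that low part. The outer 5′ promoter, not a member by the rule, had 72 tags in sh-VNGD, against 83 in sh-ctrl. Of 38 shared regions in FHIT, none had an interval off the level of all regions. Median peak pileups were 15 in sh-VNGD and 13 in sh-ctrl in the first 600 kb, and 13 in sh-VNGD and 12 in sh-ctrl beyond. Under 15 tags only 0.06% of regions in very long genes lay below the level and 0.03% above. The lack of calls in FHIT thus does not show equal heights.

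WWOX encodes a WW domain oxidoreductase and spans 1113 kb on chromosome 16. It held 90 peaks in sh-VNGD, against 68 in sh-ctrl, or 81.0 per Mb in sh-VNGD and 61.2 per Mb in sh-ctrl, and a ratio of 1.32 (0.96 to 1.84). Its highest regions lay in the first 200 kb. That at chr16:78249075-78249599, 150 kb from the 5′ end, had 84 tags in sh-VNGD, against 100 in sh-ctrl, and that at chr16:78240430-78240929 had 72 in sh-VNGD, against 84 in sh-ctrl. The region at chr16:78748153-78748937, 649 kb into the gene and picked for its low ratio, had 17 tags in sh-VNGD, against 59 in sh-ctrl. Over 43 shared regions the median log2 ratio was −0.53, the lowest of any fragile site gene, and 8 had intervals below the level of all regions and none above. Over all autosomal shared regions 7.42% lay below and 2.98% above. Among those with a mean pileup of 50 or more 21.1% lay below, and the WWOX regions were not matched for height. The first 200 kb had a median of −0.70 over 14 regions and the rest −0.39 over 29. The background was raised at 77.8% of sh-VNGD and 75.0% of sh-ctrl peaks in the first 200 kb, and at 44.4% in sh-VNGD and 43.8% in sh-ctrl in the rest. The outer 5′ promoter had 187 tags in sh-VNGD, against 184 in sh-ctrl.

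LRP1B, a receptor of the LDL receptor family, had the lowest count ratio of the list, with 108 peaks in sh-VNGD, against 100 in sh-ctrl (1.08, 0.82 to 1.43). The strand of the gene is not in the table, so distances run from its end with the lower coordinate. In the segment from 1000 to 1500 kb sh-VNGD had 41 peaks and sh-ctrl 48. There the median log2 ratio was −0.67 over 26 shared regions, and sh-ctrl had the higher unscaled pileup in 16. Intervals lay below the level of all regions in 6 and above it in none, against 7.42% below and 2.98% above over all autosomal shared regions. The background was raised at 36.6% of sh-VNGD peaks and 72.9% of sh-ctrl peaks in that segment. In the first 1000 kb sh-VNGD had 40 peaks and sh-ctrl 31, with a median of −0.10 over 20 regions.

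**Figure D5:**
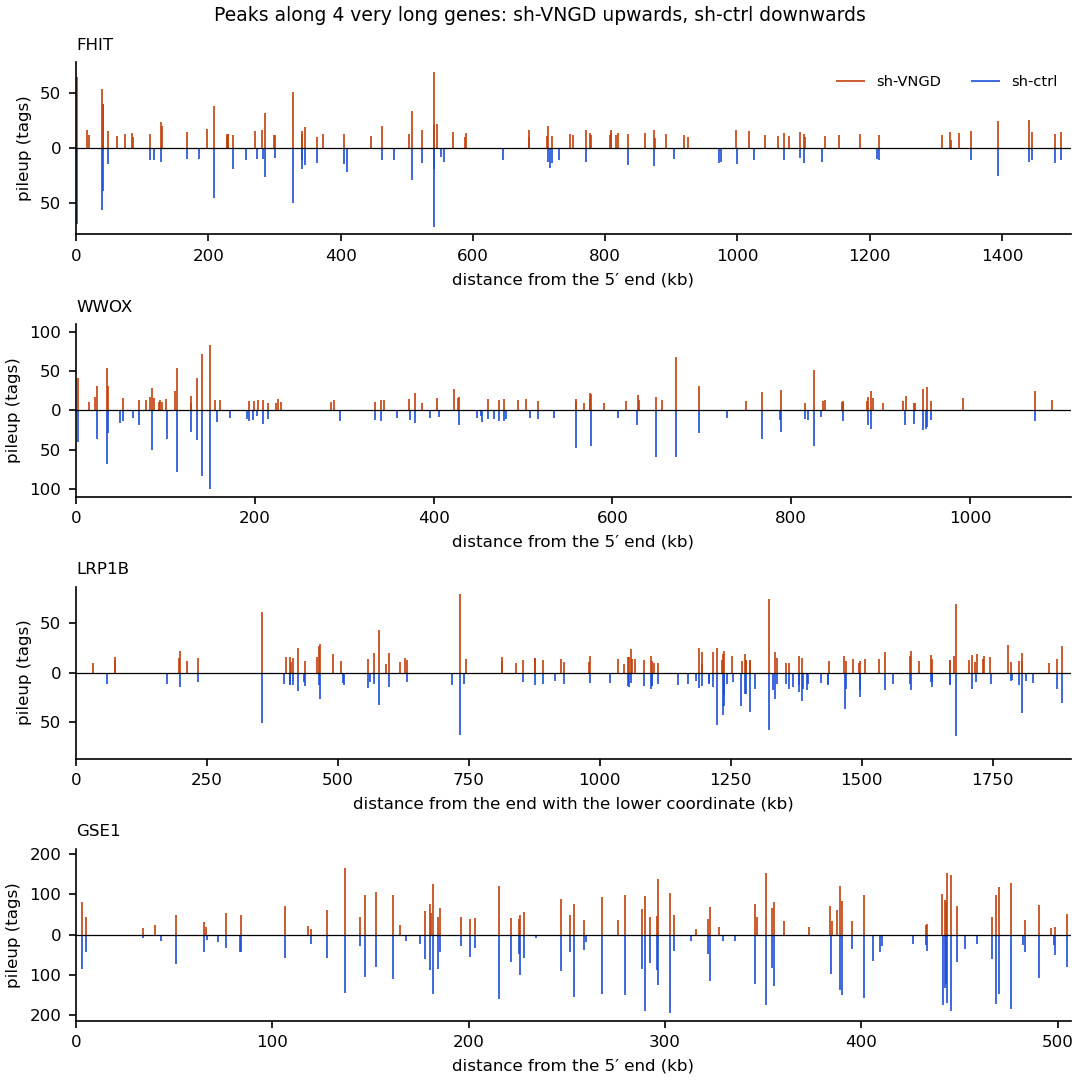
Pileup in tags, unscaled, of each member peak along FHIT, WWOX, LRP1B and GSE1, against distance in kb from the 5′ end (for LRP1B from the end with the lower coordinate); sh-VNGD peaks point upwards and sh-ctrl peaks downwards. FHIT has no peak over 26 tags beyond 600 kb, the highest WWOX peaks lie within 200 kb, and the peaks of GSE1 are high along most of the gene.

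RORA, a nuclear receptor, had the lowest maximum of the fragile site genes by the mean of both libraries, 43 tags in sh-VNGD, against 45 in sh-ctrl. Other members reached high pileups far inside. DAB1, an adaptor of reelin signalling, had a region of 171 tags in sh-VNGD, against 170 in sh-ctrl at 168 kb from its 5′ end. CNTNAP2, of the neurexin superfamily, had 162 tags in sh-VNGD, against 165 in sh-ctrl at 1731 kb. NAALADL2 had 141 tags in sh-VNGD, against 137 in sh-ctrl at 1347 kb, and IMMP2L, a mitochondrial peptidase subunit, had 165 in sh-VNGD and 154 in sh-ctrl at 313 kb. The synaptic scaffold gene DLG2 had 169 tags in sh-VNGD, against 137 in sh-ctrl at 303 kb. MACROD2, an ADP-ribosylhydrolase, was higher in sh-ctrl at its top region by scaled pileup, with 63 tags in sh-VNGD, against 102 in sh-ctrl.

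Among the dense members of the list was the adhesion gene SDK1, with 105 peaks per Mb in sh-VNGD, against 75.6 in sh-ctrl. The sparsest by the mean of both libraries was DPYD, with 55.9 per Mb in sh-VNGD and 22.6 in sh-ctrl, which was also among the genes with a called count ratio. For CTNNA3, ESRRG, LSAMP and NBEA, densities lay between 59.3 and 87.0 per Mb in sh-VNGD and between 38.4 and 72.7 in sh-ctrl. Promoters of the list differed in state. ESRRG, an orphan nuclear receptor, had no peak at its outer promoter but 71 tags in sh-VNGD, against 79 in sh-ctrl at an inner one. DAB1 was open at the outer promoter, with 106 tags in sh-VNGD, against 111 in sh-ctrl, and closed at 5 inner windows.

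The last comparison asked how many peaks the libraries shared and how high they stood. Overlapping by at least 1 bp, 47.5% of member peaks in sh-VNGD (46.8 to 48.2) and 71.0% in sh-ctrl (70.3 to 71.8) were shared, against 51.4% of all autosomal peaks in sh-VNGD and 72.2% in sh-ctrl. Sharing followed height. At a pileup of 50 or more it was 99.4% in sh-VNGD and 99.0% in sh-ctrl, and under 15 tags it was 28.2% in sh-VNGD and 59.1% in sh-ctrl. Over all autosomes it was 99.2% in sh-VNGD and 98.7% in sh-ctrl at 50 tags or more, and 27.7% in sh-VNGD and 56.4% in sh-ctrl under 15 tags.

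Shared regions, 9450 in very long genes, were compared by the log2 of sh-VNGD over sh-ctrl pileup, each divided by kept tags. The median was −0.21 (−0.22 to −0.20), against −0.26 over all 144151 autosomal shared regions, the level used below, and −0.21 outside genes. Without scaling for depth the median was 0.24, so its sign rests on the scaling. By height it was −0.43 in member regions whose mean pileup reached 50 tags and −0.46 over all such regions, and −0.19 under 15 tags in both. Intervals lay wholly below the level of all regions in 461 member regions (4.88%) and wholly above it in 281 (2.97%), against 7.42% below and 2.98% above over all autosomal shared regions. Among member regions of pileup 50 or more, 18.1% lay below and 3.52% above, against 21.1% below and 1.68% above over all. Under 15 tags an interval could hardly leave the level, with 0.06% below and 0.03% above.

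Among genes with at least 10 shared regions the lowest median log2 ratio was that of GSE1, at −0.76 over 69 regions, of which 35 had intervals below the level of all regions and none above. WWOX followed at −0.53 over 43 regions and NAALADL2 at −0.50 over 34. PRKCE stood at −0.46 with 12 of 45 regions below and 2 above. The trafficking gene NBEA stood at −0.45 with 2 of 21 below, level with FAF1 and B3GALT1. The highest median was that of SV2C, a synaptic vesicle protein, at 0.23 over 26 regions with 1 below and 3 above. CDH4 stood at 0.15 over 40 regions with 1 below and 7 above, PPP2R2B at 0.13 over 13, RIMS1 at 0.11 over 12 and MDGA2 at 0.10 over 21. Over all 303 genes, few regions or many, the medians had quartiles of −0.30 and −0.11. Nearly all peaks of both GSE1, at the low end, and CDH4, at the high end, had a raised background, as given above. Over all autosomal shared regions 7.42% lay below the level and 2.98% above. At a mean pileup of 50 or more the shares were 21.1% below and 1.68% above. The genes were not matched for height, and the median pileup of GSE1 peaks was 55 in sh-VNGD and 61 in sh-ctrl.

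By scaled pileup the highest shared region, chr17:61356379-61357160 in BCAS3, had 274 tags in sh-VNGD, against 281 in sh-ctrl over a background of 31.7 in sh-VNGD and 31.1 in sh-ctrl. Regions ranked just after it lay in pseudogenes of mitochondrial genes. The AKAP6 region at chr14:32484106-32485188 lies in MTCO1P2 and had 268 tags in sh-VNGD, against 230 in sh-ctrl, and the KHDRBS2 region at chr6:61574035-61574614 lies in MTRNR2L9 and had 254 in sh-VNGD and 216 in sh-ctrl. Another BCAS3 region, chr17:61235475-61236342, came next with 174 tags in sh-VNGD, against 237 in sh-ctrl. Reads of mitochondrial DNA can align to pseudogene copies, and their part in these pileups was not tested. Only 5 member regions lay in such pseudogenes. RYR2, the cardiac calcium release channel gene, had a region of 220 tags in sh-VNGD, against 168 in sh-ctrl at 561 kb from its 5′ end. A region inside the table's RANBP2 bounds, chr2:109199256-109199912, lies in SH3RF3 and had 212 tags in sh-VNGD, against 143 in sh-ctrl, 0.38 above the level of all regions (0.07 to 0.70).

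The following regions, the 3 lowest and 3 highest by ratio among those with a mean pileup of 30 tags or more, were picked for it, so their direction is no finding. In SNX29 the region at chr16:12215211-12215817 had 11 tags in sh-VNGD, against 62 in sh-ctrl. In PPFIA2, chr12:81385539-81386215 had 12 tags in sh-VNGD, against 59 in sh-ctrl, and in DLG2, chr11:85206926-85207419 had 14 in sh-VNGD and 61 in sh-ctrl. In the other direction, chr12:129202517-129203174 in TMEM132D had 66 tags in sh-VNGD, against 13 in sh-ctrl, chr3:143601899-143602444 in SLC9A9 had 53 in sh-VNGD and 13 in sh-ctrl, and chr20:61422690-61423387 in CDH4 had 56 in sh-VNGD and 14 in sh-ctrl. These 6 regions lay between 128 and 421 kb from the nearer outer end of their gene.

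Peaks found in 1 library only were low. The 10567 of sh-VNGD had a median pileup of 13 tags and the 3902 of sh-ctrl 11 tags, and few of either were high. A pileup of 30 or more was reached by 0.662% of them in sh-VNGD and 1.67% in sh-ctrl, against 1.71% in sh-VNGD and 3.40% in sh-ctrl over all autosomes. The highest of sh-VNGD were a DSCAM peak of 66 tags at chr21:40383990-40384245 and a GSE1 peak of 61 tags at chr16:85557176-85557406. The highest of sh-ctrl lay in BCAS3, with 112 tags at chr17:61231336-61231710 and 90 tags at chr17:61230920-61231273, then PTPRG with 70 tags and AUTS2 with 66. A peak of the other library lay within 5.47 kb of each of the 10 highest. Tags may be present where no peak was called, and the local background under the BCAS3 peak of 112 tags was 27.5 tags.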

How the data were processed

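ATAC-seq was measured in 1 library per group. Per the file headers, peaks were called on each library with MACS 2.1.0.20150731 without a control, with tags shifted by 100 bp and extended to 200 bp, 1 tag kept per position, a q cutoff of 0.05 and a local window of 10000 bp. Per the submitters' processing notes, the tools were MACS2 2.1.2, Bowtie2 2.2.5 and deepTools and the builds hg38 and GRCh38.p13, with no alignment filter stated. The deposited pileup is a signal, the tags over the summit, unscaled by the authors. Fold enrichment over the local background was deposited by the authors for each peak, as were −log10 p and −log10 q.

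Gene bounds were taken from RefSeq (GRCh38.p14), in a table without exons, so exon and intron could not be separated, and 52 of the 303 genes have no strand there. Depth was 48164322 tags read in sh-VNGD and 51628228 in sh-ctrl, with the kept tags given above setting the precision. Peaks overlapping by at least 1 bp were merged into regions. Local background was computed from pileup and fold enrichment. Shares have Wilson, densities exact Poisson and ratios exact Clopper-Pearson 95% intervals. Regions were called by whether the interval left the median of all autosomal shared regions, genes with at least 30 peaks by whether it left the count ratio of all autosomal peaks.

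The members and the 6 gene lists were chosen with earlier results of these data known. Named genes were all 20 fragile site genes, the 10 highest and 10 lowest count ratios, the 5 highest and 5 lowest densities and median region ratios (at least 10 shared regions), the genes of the 10 highest shared regions and of the 5 highest peaks found in 1 library, for each library, and the 2 densest and 2 sparsest of each list. Not all of these are printed, and some are not reported here. The alternatives changed the gene span, the distance from the ends, the q threshold, the numbers of peaks, the overlap, the scaling and the height. Python 3.11.15, numpy 2.4.6, pandas 2.3.3, scipy 1.17.1 and matplotlib 3.10.9 were used, and the scripts were tested on simulated data.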

Additional observations from a re-analysis of the deposited data

How the results depend on the processing

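With genes of at least 300 kb, density was 87.0 per Mb in sh-VNGD and 59.2 in sh-ctrl, raised background 41.9% in sh-VNGD, against 43.1% in sh-ctrl, the median log2 ratio −0.23, or 0.036 above all regions, and 5.65% of regions lay below. With genes of at least 1 Mb, density was 70.9 in sh-VNGD and 46.6 in sh-ctrl, sharing 45.7% in sh-VNGD and 69.7% in sh-ctrl, raised background 30.0% in sh-VNGD and 30.6% in sh-ctrl, and 3.91% of regions lay below and 2.60% above. With a −log10 q of at least 5, density was 63.2 in sh-VNGD, against 41.1 in sh-ctrl, the count ratio 1.54, or 1.09 times that of all peaks, sharing 46.4% in sh-VNGD, raised background 43.3% in sh-ctrl, the median −0.24 and the share above 3.40%. The fragile site genes then had medians of 55.6 per Mb in sh-VNGD and 38.2 in sh-ctrl. When both lists held the same number of peaks, the ratio of all autosomal peaks was 1 by construction. The sh-VNGD density was then 56.0, the count ratio 1.04, sharing 57.2% in sh-VNGD and 59.8% in sh-ctrl and raised background 41.2% in sh-VNGD. The median log2 ratio was −0.14, or 0.080 above all regions, and 5.70% lay below. The fragile site genes then had a median ratio of 1.02 and 49.5 per Mb in sh-VNGD. Requiring an overlap of 50% left sharing at 45.2% in sh-VNGD, against 68.5% in sh-ctrl.

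The median log2 ratio reversed to 0.24 with unscaled pileup, the depth factor being the change made. It was −0.071 by the authors' fold enrichment, or 0.016 above all regions, and −0.38 at a mean pileup of 30 or more. Without centring on all regions, 10.9% lay below and 0.783% above. With peaks at the genome-wide background alone, an alternative chosen after seeing the data, sharing was 41.1% in sh-VNGD, against 66.5% in sh-ctrl, the median −0.16, and 0.547% lay below and 1.53% above. Leaving out the genes that hold 3 or more other protein-coding genes, also chosen after seeing the data, moved none of these results beyond its interval. Ranked by fold enrichment, 3 of the first 10 regions stayed in the first 10. At the genome-wide background the share above thus exceeded the share below, the other way round from the report. That setting kept 4574 of the 9450 regions, and the level stayed that of all autosomal shared regions. The background is drawn from the same tags as the peaks, so the filter was not independent of peak height. With equal numbers of peaks, raised background was the more frequent in sh-VNGD, and the fragile site median was the higher in sh-ctrl, at 50.7 per Mb, both also turned round. The cause of these and the other moves was not tested. Of the called genes, 2 lost the call with summits over 10 kb from the ends, 8 with the q threshold and 5 with equal numbers of peaks, where LRP1B gained one.

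No paired analysis was possible because each group had 1 library, and for the same reason leaving out a library was impossible. Depth limits the low peaks most: under 15 tags, 0.06% of member intervals lay below the level of all regions and 0.03% above.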
